A study of Mus musculus with 5 samples.

Results

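PROX1 is the transcription factor that specifies lymphatic endothelium, and 10 genes tied to it in that cell type were followed in mouse liver tumours in which Prox1 had been switched on. They were the transcription factor genes Nr2f2 and Sox18, the growth factor genes Vegfc and Vegfd, the receptor gene Flt4, the surface protein genes Lyve1 and Pdpn, and the genes of the secreted proteins Reln, Mmrn1 and Ccl21a. The genes were chosen by name, and each name matched 1 row, so that they made up 10 of the 55397 genes listed. The question put to them was whether a high level of Prox1 in a liver tumour goes with the genes of its lymphatic program.

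Tumours were dissected from livers of female C57BL/6N mice and their total RNA was sequenced. At 8 weeks of age all mice had received, by hydrodynamic tail vein injection (HDTVI, in which a large volume pushed into the tail vein carries plasmids into hepatocytes), a Sleeping Beauty transposase plasmid (4 µg) and transposon plasmids (10 µg) for AKT and for NICD, the intracellular domain of the Notch1 receptor. Both of these came from an EF1a promoter, together with rtTA, the protein through which doxycycline acts, and the pair gives tumours that resemble cholangiocarcinoma (CCA). Prox1 overexpression (Prox1 OE) mice also received FLAG-tagged mouse Prox1 with GFP behind a Tre promoter, and Control mice received the same plasmid with GFP and no Prox1. Doxycycline food (6.25%) was given from day 21, which placed overexpression between week 3 and week 4, and tumours were taken after a week of it or at a humane endpoint, without a statement of which applied to which tumour. There were 2 Control and 3 Prox1 OE libraries, and nothing in the labels ties them to separate mice, so that p-values measure the spread between these libraries only.

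In the embryo, SOX18 and NR2F2 (also called COUP-TFII) together switch on Prox1 in cells of the cardinal vein, which then leave it as lymphatic endothelial cells. PROX1 keeps up Flt4, which encodes VEGFR3, the receptor for VEGF-C and VEGF-D, and signalling through this receptor in turn keeps up Prox1. Mature lymphatic vessels carry the hyaluronan receptor LYVE1 and the mucin-like protein podoplanin (Pdpn), and release the chemokine CCL21, reelin and multimerin 1. In liver several of these genes are also used elsewhere: sinusoidal endothelium carries LYVE1 and VEGFR3, stellate cells make reelin, and podoplanin is found on mesothelium and some carcinoma cells. PROX1 itself is a normal hepatocyte protein.

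Ccl21a shares most of its coding sequence with near-identical copies, which bears on how its reads can be read. In the GENCODE annotation of mm10 the coding sequence of Ccl21a was 402 bases long, and that of Ccl21b, Gm10591, Gm13304 and Gm21541 each differed from it by 2 substitutions (99.5% identity). The substitutions were T84A and C194T, with positions counted from the A of the start codon and the base of Ccl21a first. The stretches around both positions, with the differing base in capitals, show how little separates the copies.
Ccl21a 69 to 99: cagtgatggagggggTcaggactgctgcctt
Ccl21b 69 to 99: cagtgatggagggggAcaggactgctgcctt
Ccl21a 179 to 209: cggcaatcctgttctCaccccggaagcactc
Ccl21b 179 to 209: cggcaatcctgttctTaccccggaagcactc
Of the 771 stretches of 100 bases in Ccl21a transcripts, 50.3% occurred unchanged in a copy. All 4 copies were listed at 0 reads in every library. Their coding sequences carry the same substitutions, and a rule that drops reads matching several genes could leave them at 0 whatever their level. The counting rule for reads that match several genes was not stated, so that a read listed under Ccl21a could not be told from one of a copy by these counts.

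Of the 9 lymphatic genes tested, Pdpn and Ccl21a had the largest differences, in opposite directions, and the 250 bases before their RefSeq start (build GRCm38.p6, written 5′ to 3′ on the strand of the gene) are shown for that reason. Both genes lie on the minus strand of chromosome 4. Capitals mark AGGTCA, the motif that nuclear receptors such as NR2F2 bind.
Pdpn chr4:143299565-143299814: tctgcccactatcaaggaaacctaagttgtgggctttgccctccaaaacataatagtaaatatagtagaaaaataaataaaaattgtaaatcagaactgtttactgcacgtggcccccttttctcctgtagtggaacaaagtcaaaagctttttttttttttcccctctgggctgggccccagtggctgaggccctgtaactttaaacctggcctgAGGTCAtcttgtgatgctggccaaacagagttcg
Ccl21a chr4:42773992-42774241: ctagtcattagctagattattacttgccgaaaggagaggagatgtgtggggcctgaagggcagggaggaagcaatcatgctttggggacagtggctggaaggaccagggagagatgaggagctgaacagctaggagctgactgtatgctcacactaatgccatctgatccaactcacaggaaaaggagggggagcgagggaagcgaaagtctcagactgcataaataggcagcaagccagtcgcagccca
RefSeq promoters matched 8 of the 10 genes, and Lyve1 and Sox18 were not among them. On either strand AGGTCA occurred in the Pdpn window alone among the 8, against 14.0% of 32851 promoter windows of this length. AACAAT, a motif of SOX proteins, occurred in the Mmrn1 window alone, against 9.42% of all windows. It was the only SOX motif searched, so that windows without it can hold other SOX motifs. These matches describe the letters of the windows and are no measure of binding.

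Values are normalised counts, that is reads of a gene divided by a size factor for its library, and libraries held 48740863 to 56629477 reads. The 10 most abundant genes took 9.37 to 10.1% of normalised counts in Control and 13.2 to 15.1% in Prox1 OE libraries. Prox1 read 4153 and 4664 in the Control libraries and 48090, 11113 and 8231 in the Prox1 OE libraries. Every Prox1 OE value was above both Control values, as the labels state, with 1 library far above the others. On the log2 scale this was a fold change of 1.90 (SE 0.66, 95% interval 0.36 to 3.43, n = 2 and 3, limma adjusted p = 0.061), which did not pass the threshold of 0.05. Without Prox1 OE replicate 1 it was 1.12 with an adjusted p of 0.0056 in limma. Reads of the plasmid and of the endogenous gene are counted together. Of the exon bases of Prox1, 1.59% lie opposite exons of Prox1os, which passed as higher (log2 fold change 0.90, limma adjusted p = 0.032), and the strand setting of the counting was not stated. The labels call the cells transformed hepatocytes, and markers of hepatocytes, bile duct, endothelium, macrophages and stellate cells were all detected, so that these libraries hold several cell types.

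Of the 10 lymphatic genes, 2 were higher and 2 were lower in Prox1 OE tumours, and the rest did not pass the test or were too low for it. Ccl21a and Reln were higher and Pdpn and Nr2f2 were lower. Lyve1, Flt4, Vegfc, Vegfd and Sox18 did not pass, and Mmrn1 was under the filter. The test was limma on log2(normalised count + 1) with Benjamini-Hochberg adjustment over the 17105 genes that averaged 10 or more normalised counts, and it called 33.3% of those genes, 17.1% as higher and 16.2% as lower. These shares are the ones to set beside the counts of calls in the lists below. Of the lymphatic genes 9 passed this filter, Ccl21a only through its Prox1 OE values, so that the 4 calls among 9 are a description. The groups did not overlap for 5 of the 9, against 63.3% of all genes tested. The median log2 fold change of the 9 was -0.23, against -0.02 for all genes tested. It was -0.41 without Control replicate 1 and -0.01 without Control replicate 2, and with total counts as library size -0.66 against -0.44 for all genes tested. Leaving out Control replicate 1 or 2, which leaves 1 library in that group and assumes that it varies like the others, lowered the calls among these genes from 4 to 1 (Ccl21a) or 2 (Ccl21a and Pdpn), and those among all genes from 5702 to 1158 or 2270. In bulk tumour RNA, fewer cells of a type and less RNA per cell cannot be told apart.

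**Figure D1:**
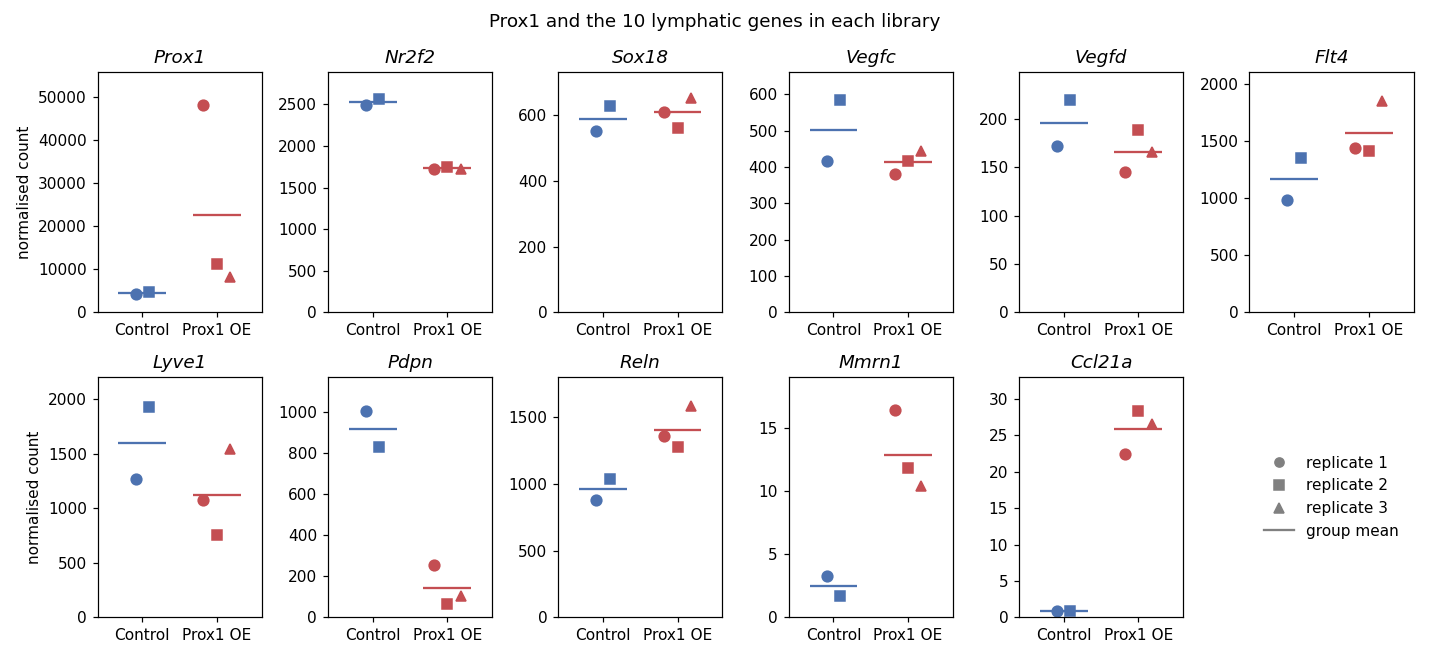
Normalised counts (y axis, from 0, a scale for each gene) of Prox1 and the 10 lymphatic genes in the 2 Control and 3 Prox1 OE libraries. Points are libraries and lines are group means, and Pdpn falls from 1005 and 830 to between 67.3 and 253 while Ccl21a goes from under 1 to between 22.5 and 28.3.

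**Figure D2:**
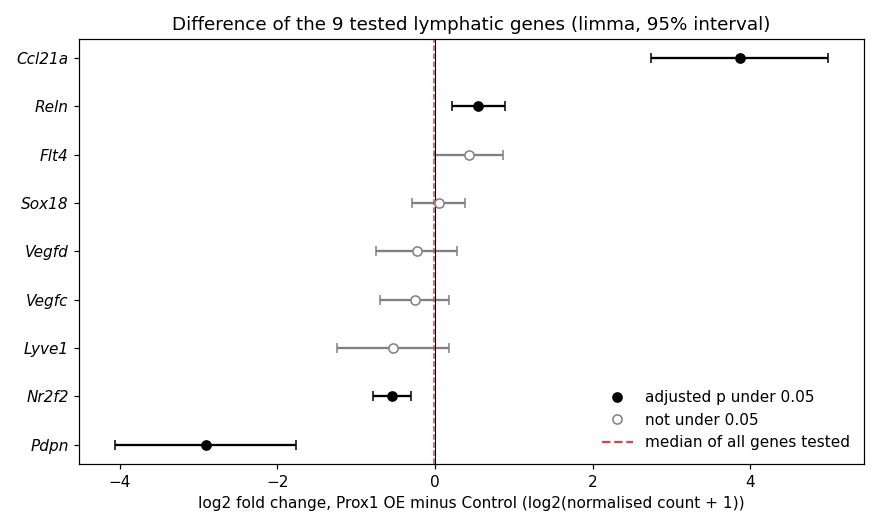
Log2 fold change with its 95% interval from limma (x axis, Prox1 OE minus Control) for the 9 tested lymphatic genes, with filled points for an adjusted p under 0.05. Pdpn at -2.91 and Ccl21a at 3.86 lie far from the other 7, which run from -0.54 to 0.55, and the dashed line is the median of all genes tested.

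Nr2f2, the orphan nuclear receptor that acts upstream of Prox1 in the vein, was lower in Prox1 OE tumours. It read 2498 and 2562 normalised counts in Control and 1729, 1751 and 1723 in Prox1 OE libraries. The groups were far apart for their spread, 2530 ± 45.3 (SD, n = 2) against 1735 ± 14.7 (SD, n = 3). In limma the difference was -0.54 on the log2 scale (SE 0.10, 95% interval -0.79 to -0.30, adjusted p = 0.0085). The call was lost without Control replicate 1 (adjusted p = 0.093) or 2 (adjusted p = 0.089), with the difference at -0.56 and -0.53. Of the exon bases of Nr2f2, 7.46% lie opposite exons of B130024G19Rik, whose own values (90.4 and 96.6 in Control, 106, 87.3 and 91.4 in Prox1 OE) overlapped between groups.

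Sox18, the SRY-box factor that works with NR2F2 on the Prox1 gene, read 552 and 627 in Control and 610, 562 and 654 in Prox1 OE libraries. These values overlapped, and the log2 fold change was 0.05 (SE 0.15, 95% interval -0.30 to 0.39, limma adjusted p = 0.83). The interval leaves room for a change of either sign within these bounds. Of 11 other transcription factor genes of lymphatic specification and valves described here, all tested, limma called 0, with 4 at an unadjusted p under 0.05 and a median log2 fold change of -0.09. Of all genes tested 33.3% were called. The median of the 11 was -0.22 without Prox1 OE replicate 1, 0.09 without Prox1 OE replicate 2 and -0.52 with total counts as library size. The tools edgeR and DESeq2, and limma with TMM factors, upper-quartile factors or a mean of at least 50, each called 1, Maf, as higher, the replicate block called Hhex as lower, and total counts as library size gave 0 higher and 4 lower. Without Prox1 OE replicate 1 limma called 2 as higher and 1 as lower, and without Prox1 OE replicate 2 it called 1 as higher. Foxc2 of lymphatic valves (log2 fold change -0.94, adjusted p = 0.067), Maf (0.50, adjusted p = 0.052) and Hhex (-0.46, adjusted p = 0.099) did not pass in limma with the deposited scaling and the filter at a mean of 10.

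The lymphatic growth factors did not pass the test with the deposited scaling. Vegfc, the main ligand of VEGFR3, read 417 and 586 in Control and 381, 418 and 443 in Prox1 OE libraries. Its groups overlapped, with a log2 fold change of -0.26 (SE 0.19, 95% interval -0.70 to 0.18, limma adjusted p = 0.32). It was -0.69 and passed with total counts as library size (adjusted p = 0.019), and was -0.014 without Control replicate 2. Vegfd, the second ligand, read 172 and 220 in Control and 145, 189 and 166 in Prox1 OE libraries. Its groups overlapped as well, with a log2 fold change of -0.23 (SE 0.22, 95% interval -0.75 to 0.28, limma adjusted p = 0.45). For Vegfd this was -0.41 without Control replicate 1, -0.05 without Control replicate 2 and -0.66 with total counts as library size (limma adjusted p = 0.051).

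Flt4, the gene of their receptor, read 986 and 1348 in Control and 1439, 1409 and 1852 in Prox1 OE libraries. All Prox1 OE values were above both Control values, although the lowest of them exceeded the higher Control value only slightly. The log2 fold change was 0.43 (SE 0.18, 95% interval -0.00 to 0.86) and did not pass (limma adjusted p = 0.11). None of the 16 other settings called it, and with total counts as library size its difference was -0.00015. Without Control replicate 1 the difference of Flt4 was 0.21, and without Control replicate 2 it was 0.66.

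Around these ligands and their receptor, 15 other genes of VEGF and angiopoietin signalling were all tested. Of these 2 were higher and 4 lower, beside 33.3% of all genes tested that were called, with a median log2 fold change of -0.06. That median was -0.37 without Control replicate 1, 0.05 without Control replicate 2 and -0.49 with total counts as library size. The lower genes encode ligands and the VEGFR1 receptor of blood vessels. Angpt2, which loosens vessel walls and is needed for lymphatic remodelling, read 661 and 595 in Control and 106, 81.4 and 98.4 in Prox1 OE libraries, which is -2.71 on the log2 scale (SE 0.20, limma adjusted p = 0.0014). Pgf, placental growth factor, read 412 and 698 in Control and 201, 160 and 134 in Prox1 OE libraries (-1.71, limma adjusted p = 0.0050). Flt1, the gene of VEGFR1, fell by 1.09 and Angpt1 by 0.59 on the log2 scale (limma adjusted p = 0.0050 and 0.022). Vegfb (0.49) and Tek, the angiopoietin receptor (0.56), were higher (limma adjusted p = 0.040 and 0.036). Without Control replicate 1 the 6 calls fell to 3, and without Control replicate 2 to 2, all of them lower genes, and the Vegfb and Tek calls were also lost without Prox1 OE replicate 2 or 3, with no filter, without the trend of limma and with the replicate block. With total counts as library size 0 were higher and 8 lower. Kdr, the gene of VEGFR2, was at 0.44 with an adjusted p of 0.060 in limma, and passed in edgeR, in DESeq2 and with TMM factors.

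Lyve1, which encodes a hyaluronan receptor of lymphatic and sinusoidal endothelium, read 1268 and 1922 in Control and 1075, 759 and 1538 in Prox1 OE libraries. The highest Prox1 OE library lay between the Control libraries. The fit gave a log2 difference of -0.53 (SE 0.30, 95% interval -1.24 to 0.17, limma adjusted p = 0.21). The difference was -0.83 without Control replicate 1, -0.23 without Control replicate 2 and -0.28 without Prox1 OE replicate 2. Limma called Lyve1 lower with total counts as library size (-0.96, adjusted p = 0.014) and with the replicate block (-0.79, adjusted p = 0.025).

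Pdpn, the gene of podoplanin, had the largest fall of the lymphatic genes. It read 1005 and 830 in Control and 253, 67.3 and 103 in Prox1 OE libraries, which is 917 ± 124 (SD, n = 2) against 141 ± 98.3 (SD, n = 3). The lowest Control value was above 3 times the highest Prox1 OE value, and the Control mean was 6.51 times the Prox1 OE mean. Limma gave this as -2.91 on the log2 scale (SE 0.49, 95% interval -4.06 to -1.76, adjusted p = 0.0056). The gene was called in 15 of 16 settings, the exception being the fit without Control replicate 1 (-2.77, adjusted p = 0.056). The Prox1 OE library with the most Pdpn, replicate 1, was also the one with the most Prox1. Among the Prox1 OE libraries it also had the most Krt7 (636 against 372 and 317) and Dsp (9289 against 6057 and 5337). The same library had the least Clec4g and Cyp2e1, and a link between Pdpn and Prox1 was not tested.

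Markers of other cells that can make podoplanin are set beside it. The 5 mesothelial markers summed to 175 and 347 normalised counts in Control and to 22.4 to 49.1 in Prox1 OE libraries. Of these, 4 (Msln, Upk3b, Upk1b and Lrrn4) passed the filter on low values only through their Control values, so that the 4 limma calls in the list, all lower, are a description. Wt1, the marker above the filter in both groups, was lower by limma (-1.54 on the log2 scale, adjusted p = 0.044) and lost the call without any 1 of 4 libraries. Msln, mesothelin, read 123 and 55.9 in Control and 1.02, 3.54 and 1.16 in Prox1 OE libraries, and Upk1b 60.0 and 21.2 in Control against 0 in all 3 Prox1 OE libraries. Of 5 bile duct markers, which also mark CCA cells, 4 were lower and none higher (median -1.21), among them Krt7 (log2 fold change -2.50, limma adjusted p = 0.0024) and Krt19 (-2.41, adjusted p = 0.0014). Most of the sum of that list was Spp1 (log2 fold change -0.34, limma adjusted p = 0.51), which did not pass, and the other 4 summed to 29355 to 32929 in Control and 9568 to 12314 in Prox1 OE libraries. Relative to the mean log2 level of those 4, a choice made after the values were seen, Pdpn overlapped between groups (-2.67 and -3.09 in Control, -3.05, -4.92 and -4.01 in Prox1 OE libraries), while with Spp1 in the mean every Prox1 OE library (-4.67 to -6.60) was below Control (-4.06 and -4.42). The part of these cells in the result was not tested. Without Control replicate 1 the bile duct calls were 3.

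Reln, the secreted glycoprotein reelin, was higher in Prox1 OE tumours. It read 882 and 1037 in Control and 1359, 1279 and 1587 in Prox1 OE libraries, 960 ± 109 (SD, n = 2) against 1408 ± 160 (SD, n = 3). All Prox1 OE values were above both Control values, by less than the groups of Pdpn differed. Its log2 difference was 0.55 (SE 0.15, 95% interval 0.21 to 0.89, limma adjusted p = 0.025). The call held in 10 of 16 settings and was lost, among others, without either Control library (adjusted p = 0.23 and 0.080) and without Prox1 OE replicate 3 (adjusted p = 0.062), and with total counts as library size the difference was 0.12 (adjusted p = 0.52). Of 10 stellate cell and fibroblast markers 9 were tested, and 2 were higher and none lower (median log2 fold change 0.21, sums of 13728 to 14486 in Control and 15764 to 20037 in Prox1 OE libraries). These were Lrat (1.09) and Colec11 (1.29), both genes of stellate cells (limma adjusted p = 0.0047 and 0.0052), and without Control replicate 1 Lrat was the 1 call left. Total counts as library size gave 2 higher and 3 lower in that list, DESeq2 gave 2 higher and 1 lower, and leaving out Prox1 OE replicate 1 gave 3 higher. The median of that list was -0.013 without Control replicate 2, -0.009 without Prox1 OE replicate 2 and 0.011 without Prox1 OE replicate 3 or with the replicate block. Relative to the mean log2 level of that list, Reln overlapped between groups (0.62 and 0.76 in Control, 1.11, 0.73 and 0.99 in Prox1 OE libraries). The part of these cells in the Reln value was not tested.

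Ccl21a, the chemokine that draws CCR7-bearing dendritic cells and T cells into lymphatics, went from the edge of detection to a low level. It had 1 and 1 reads in Control and 22, 24 and 23 reads in Prox1 OE libraries, or 0.82 and 0.85 against 22.5, 28.3 and 26.6 normalised counts. The 3 Prox1 OE libraries lay close together and far above both Control libraries. On 2 reads against 69, scaled for depth, the ratio was 30.7 with an exact 95% interval of 8.20 to 259, which covers counting error only. The fitted log2 difference was 3.86 (SE 0.48, 95% interval 2.74 to 4.98, limma adjusted p = 0.0027) and depended on the added constant, from 1.72 with 10 to 4.79 with 0.1. It was called in all 15 settings that tested it. The sequences of its copies above bear on which gene copy these reads came from.

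Mmrn1, the gene of multimerin 1, a protein of platelets and lymphatic endothelium, stood lowest of the 10 genes per kilobase of exon in both groups, with few reads behind its place in Control. It had 4 and 2 reads in Control and 16, 10 and 9 reads in Prox1 OE libraries. All Prox1 OE libraries were above both Control libraries, and with a mean of 8.71 normalised counts the gene was under the filter. The ratio on 6 reads against 35, scaled for depth, was 5.20 (exact 95% interval 2.16 to 15.1, counting error only). With no filter on low values limma gave a log2 difference of 2.00 (SE 0.52, adjusted p = 0.042). Of 6 platelet markers only Pf4 and Itga2b passed the filter, and neither was called (limma adjusted p = 0.37 and 0.29, sums of 498 and 530 in Control and 441 to 553 in Prox1 OE libraries).

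Genes whose products meet the lymphatic proteins moved in both directions. Of 16 such genes 14 were tested, and 3 were higher and 7 lower, beside 33.3% of all genes tested that were called. The median log2 fold change was -0.74, and 1 of the 14, Has2, passed the filter only through its Control values. Among partners of CCL21, Ackr4, a scavenging receptor for it, read 14.0 and 12.7 in Control and 50.1, 54.3 and 52.1 in Prox1 OE libraries (log2 fold change 1.89, limma adjusted p = 0.0054). Ccr7, the signalling receptor, read 26.3 and 28.8 in Control and 30.7, 70.8 and 71.8 in Prox1 OE libraries and did not pass (limma adjusted p = 0.13), but was called without Prox1 OE replicate 1 (1.34, adjusted p = 0.014). Among partners of reelin, the receptor gene Vldlr fell by 1.05 and the adaptor gene Dab1 by 1.40 on the log2 scale (limma adjusted p = 0.0025 and 0.0048). Among partners of podoplanin, Clec1b, its platelet receptor, which sinusoidal endothelium and Kupffer cells also make, was higher (1.28, limma adjusted p = 0.013), and Cd44 fell by 1.35 on the log2 scale (limma adjusted p = 0.0026). Among genes of hyaluronan, the ligand of LYVE1, the synthase gene Has3 fell by 1.36 (limma adjusted p = 0.0030). Without Control replicate 1 the 3 higher and 7 lower calls were 1 and 4, and without Prox1 OE replicate 1 they were 4 and 7.

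A further list held 6 genes linked to PROX1 in endothelial cells, namely Fgfr3, Cdkn1c, Ccne1, Ccne2, Dsp and Itga9. None was higher and 2 of the 6 were lower, beside 33.3% of all genes tested that were called in either direction. The median log2 fold change was -0.47. Dsp, desmoplakin, which epithelial cells also make in quantity, averaged 15536 ± 322 (SD, n = 2) in Control and 6894 ± 2105 (SD, n = 3) in Prox1 OE libraries (-1.21, limma adjusted p = 0.0077). Itga9, an integrin of lymphatic valves, fell by 0.47 on the log2 scale (limma adjusted p = 0.021). With total counts as library size 4 were lower, with the replicate block 1 was higher and 2 lower, and 3 were lower in DESeq2, with a mean of at least 50 and without Prox1 OE replicate 1. Without Control replicate 1 neither call remained, and without Control replicate 2, without Prox1 OE replicate 2 or without the trend of limma the count was 1.

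Per kilobase of exon, which allows levels to be set between genes, the order of the 10 genes changed mainly through Pdpn. In Control tumours Lyve1 (546 normalised counts per kb) and Pdpn (505) stood highest and overlapped. Below them came Sox18 (364), Nr2f2 (293), Vegfc (205), Flt4 (142), Vegfd (81.4), Reln (40.4), Ccl21a (0.96) and Mmrn1 (0.42), each apart from the next in both libraries. In Control the value of Ccl21a rests on 1 and 1 reads and that of Mmrn1 on 4 and 2 reads. A single read could therefore change the order of Ccl21a and Mmrn1 there. In Prox1 OE tumours Lyve1 (385) and Sox18 (376) overlapped at the top, followed by Nr2f2 (201), Flt4 (190) and Vegfc (169), of which each overlapped with the next. Pdpn (77.6) stood sixth and overlapped with Vegfd (69.1), which overlapped with Reln (59.3). Ccl21a (29.7) and Mmrn1 (2.19) stayed the lowest and were apart from their neighbours. Prox1 itself was at 525 per kb in Control, near Lyve1.

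**Figure D3:**
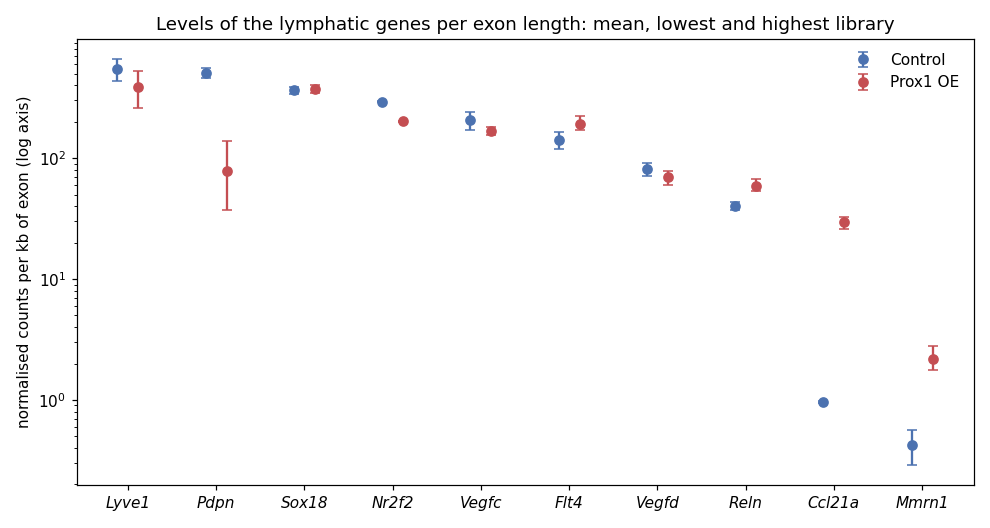
Normalised counts per kb of merged exons (y axis, log scale) of the 10 lymphatic genes in Control and Prox1 OE tumours, with points for group means and bars from the lowest to the highest library. Lyve1 leads in both groups at 546 and 385, and Mmrn1 is lowest at 0.42 and 2.19, with the order of Mmrn1 and Ccl21a in Control resting on few reads.

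Endothelial markers did not move as a block, and the lymphatic genes are set beside them here. Of 10 pan-endothelial markers none was higher and 2 were lower, with a median log2 fold change of -0.24 and sums of 13421 to 15799 in Control and 10426 to 13271 in Prox1 OE libraries. The lower ones were Ecscr (-0.85) and Vwf, von Willebrand factor (-0.68), at limma adjusted p = 0.0085 and 0.012. Of 9 markers of sinusoidal endothelium, the specialised lining of liver capillaries, 7 were higher and none was lower, with a median of 0.90 and sums of 6784 to 9219 in Control and 14542 to 20294 in Prox1 OE libraries. Clec4g, a sinusoidal lectin, read 283 and 565 in Control and 1629, 2551 and 3537 in Prox1 OE libraries (log2 fold change 2.61, limma adjusted p = 0.0035). Kupffer cell markers were higher in 3 of 6 and lower in none (median 1.10, sums of 6501 to 9470 in Control and 15538 to 24643 in Prox1 OE libraries), and hepatocyte markers were higher in 5 of 5 (median 1.69, sums of 568610 to 966550 in Control and 1955900 to 3129800 in Prox1 OE libraries). No marker of these 4 lists was at 0 in all libraries. Without Control replicate 1 the sinusoidal, Kupffer and hepatocyte calls were 2, 1 and 0, and the 2 pan-endothelial calls were lost without either Control library. Hepatocyte calls were 2 without Prox1 OE replicate 2 and 3 without Prox1 OE replicate 3, and without Prox1 OE replicate 1 the pan-endothelial list had 2 higher and 2 lower. Cldn5, claudin 5 (0.64, limma adjusted p = 0.061), was called higher in DESeq2 (adjusted p = 0.036) and with the replicate block (adjusted p = 0.026), where Emcn also passed as lower (adjusted p = 0.037). With total counts as library size the median of all genes was -0.44, and the stellate and platelet lists (0.21 and 0.05) had medians of -0.22 and -0.38. In the same setting the pan-endothelial list had 6 lower and a median of -0.67, and the sinusoidal list 4 higher and a median of 0.47.

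**Figure D4:**
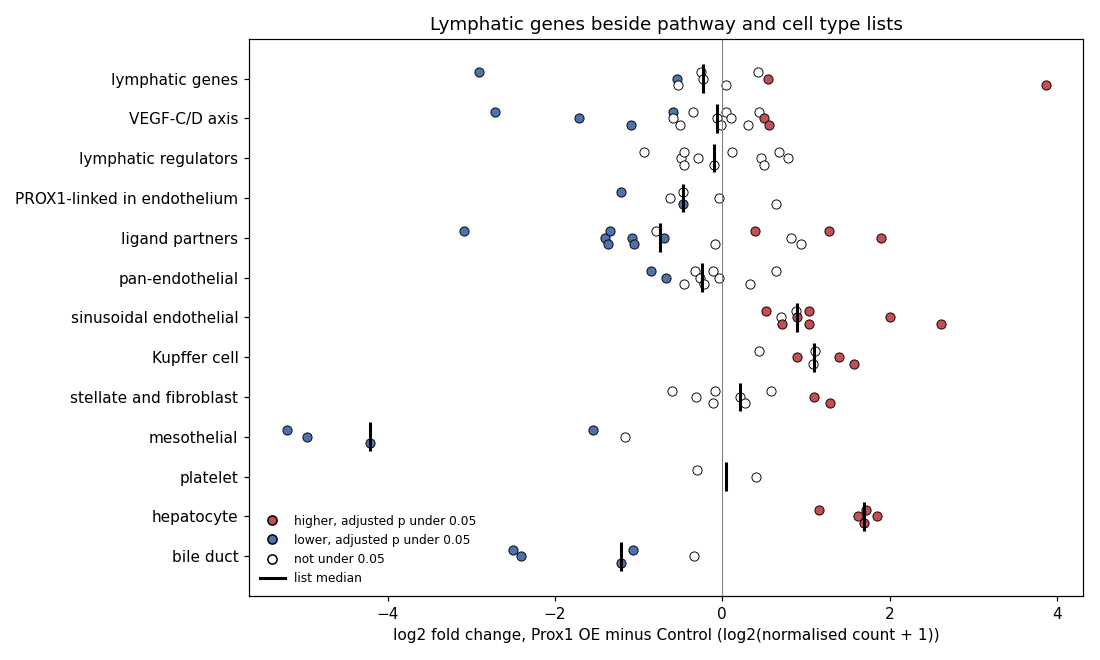
Log2 fold change (x axis, Prox1 OE minus Control) of each tested gene of the lymphatic genes and of 12 other lists, with the list median as a bar and colour for genes with a limma adjusted p under 0.05. The lymphatic genes spread to both sides around -0.23, while the sinusoidal list lies to the right (median 0.90), and 4 of the 5 mesothelial genes at the left passed the filter only through their Control values.

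Relative to the mean log2 level of the pan-endothelial list in the same library, 3 lymphatic genes were called by limma, where 23.8% of all genes tested were, and as 1 of the 3, Ccl21a, passed the filter only through its Prox1 OE values the count is a description. Genes share the spread of the list in this scaling, which makes these p-values too small. Pdpn stayed lower by 2.71 on the log2 scale (adjusted p = 0.00028), Reln was higher by 0.75 (adjusted p = 0.027) and Ccl21a had a difference of 4.06. Nr2f2 was lower by 0.35 on this scale and did not pass (limma adjusted p = 0.29), and Flt4 was higher by 0.63 and did not pass (limma adjusted p = 0.059). Relative to the sinusoidal list, Lyve1 was at 1.15 and 1.21 in Control and -0.30, -0.92 and -0.32 in Prox1 OE libraries, and Flt4 at 0.79 and 0.70 against 0.12, -0.03 and -0.05, both log2 differences from the list mean. On that scale Reln, Pdpn, Nr2f2, Sox18, Vegfc and Vegfd were also below their Control values in every Prox1 OE library. Ccl21a stayed above its Control values (-8.30 and -8.81 in Control, -5.81, -5.61 and -6.12 in Prox1 OE libraries), and Mmrn1 overlapped between groups. The sinusoidal list itself was higher in Prox1 OE libraries (median 0.90), so that any gene that rose less than the list falls on this scale. The part of sinusoidal cells in the values of Lyve1, Flt4 and the other genes was not tested.

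**Figure D5:**
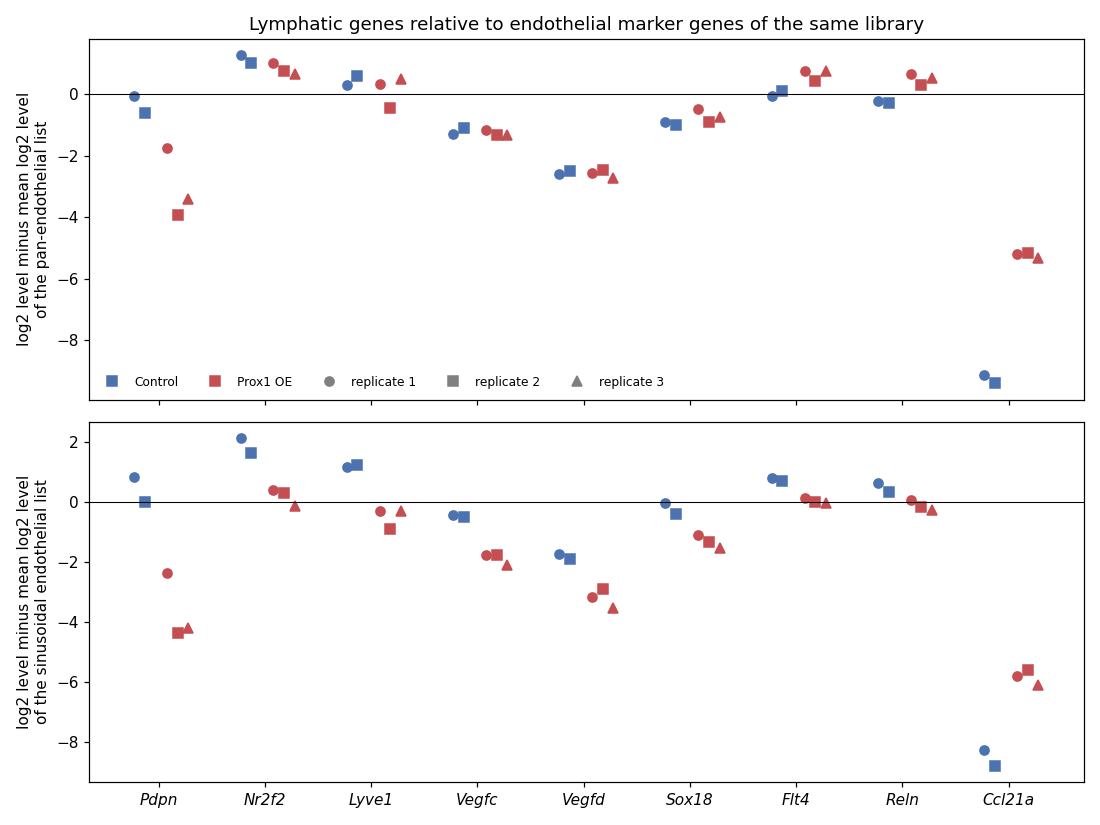
Log2 level of the 9 tested lymphatic genes minus the mean log2 level of the pan-endothelial list (upper panel) and of the sinusoidal list (lower panel) in the same library, with points for the 2 Control and 3 Prox1 OE libraries. Ccl21a lies higher and Pdpn lower in Prox1 OE libraries in both panels, while Flt4, Reln and Sox18 lie higher against the pan-endothelial list and lower against the sinusoidal list. In the lower panel every gene but Ccl21a lies lower, against a list that was itself higher in Prox1 OE libraries.

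By position in the mm10 annotation, all 10 were protein-coding genes on 8 chromosomes. Nr2f2 (chr7:70351944-70366735) and Lyve1 (chr7:110850607-110863239) share chromosome 7, and Pdpn (chr4:143267431-143299564) and Ccl21a (chr4:42772860-42773993) share chromosome 4. Flt4 lies at chr11:49609263-49652739, Vegfc at chr8:54077606-54187096, Vegfd at chrX:164373378-164402650 and Sox18 at chr2:181669836-181671640. Reln spans chr5:21884454-22344702, where 1.04% of its exon bases lie opposite Gm10475, which had no read in any library, and Mmrn1 spans chr6:60924976-60989378. Values are sums over all exons of a gene.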

How the data were processed

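The authors prepared dUTP libraries, which preserve strand, sequenced them as paired 100 base reads and mapped these to mm10 with STAR. The counting tool, its strand setting and its rule for multi-mapping reads are not given in the sources used here. The deposited signal is the number of reads of a gene over the size factor that DESeq2 gave its library, and 100% of values were whole reads within 0.1 read (1 read was worth 0.822 to 1.18). The authors' other table, their own DESeq2 comparison with means, shrunken fold changes and p-values, was not used. Symbols came from GENCODE (55137 of 55397 identifiers).

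Because values were normalised, limma 3.58.1 in R 4.3.3 was fitted with a mean-variance trend, two-sided, to log2(value + 1) for all genes with a mean of at least 10, at a threshold of 0.05, and fold changes of low genes are understated on that scale. The script was tested on simulated data. Alternatives were other scalings (TMM, upper quartile, total count), pseudocounts of 0.1 and 10, no filter or a mean of 50, no trend, edgeR 4.0.16 and DESeq2 1.42.0 on the recovered reads, a replicate block and leaving out each library. No pair of libraries within a group agreed within sampling noise (chi-square over degrees of freedom 36.2 to 115). Besides the lymphatic genes and Prox1, at most the 4 genes with the smallest adjusted p of each list are named, with those a result turns on. Kdr, Vegfb, Tek, Clec1b, Ackr4 and Ccr7 were named after their values were seen. A gene of the transcription factor list is not reported here and was left out of its counts. The lymphatic genes and all lists were chosen with earlier results of these data known.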

Additional observations from a re-analysis of the deposited data

How the results depend on the processing

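Leaving out 1 library at a time gave 1 to 4 lymphatic genes called, 1 to 2 higher and 0 to 2 lower, and 1158 to 7491 genes called in all. Just 1 lymphatic gene was called higher with total counts as library size, without the trend and with the replicate block (Ccl21a, with Reln lost), and with a mean of at least 50 (Reln, with Ccl21a under the filter). Those called lower were 4 with total counts (Pdpn, Nr2f2, Lyve1 at -0.96 and Vegfc at -0.69) and 1 relative to the pan-endothelial mean. Total counts shifted the median over all genes from -0.02 to -0.44 (log2) and the split of calls from 2933 higher and 2769 lower to 1475 and 6833. The log2 fold change of Prox1 passed at 2.36 in edgeR (adjusted p = 0.047), 2.39 with the block (adjusted p = 0.0013) and 2.09 relative to the pan-endothelial mean (adjusted p = 0.0065), and ran from 1.12 to 2.39 when 1 library was left out, passing without Prox1 OE replicate 1 (adjusted p = 0.0056) or 3 (adjusted p = 0.032). Signs turned under total counts for Flt4 (-0.00015), Sox18 (-0.38), Dcn (-0.16) and Itga2b (-0.027), and for Sox18 with the block (-0.0072) and over libraries left out (-0.046 to 0.14). None of these 4 was called. Of the other values of lymphatic genes under an alternative, 134 kept their side of the threshold and direction, 10 lost the call and 3 gained it, and the causes were not tested.

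The replicate block used replicates 1 and 2 of each group, so it drops Prox1 OE replicate 3. Same-numbered libraries had correlations of deviations of 0.14 and 0.016, Control replicate 2 with Prox1 OE replicate 3 had 0.14, and no label ties the numbers. With 2 Control libraries the deviations of 1 mirror those of the other, so that these correlations cannot decide on a pairing. The block called 5246 genes, 4873 of them shared with the fit without it, lost Reln (0.46, adjusted p = 0.0503) and gained Lyve1 (-0.79, adjusted p = 0.025). Ccl21a and Mmrn1 rest on 71 and 41 reads in all, which limits the precision of their fold changes.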
